A study of Mus musculus with 8 samples.

Results

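The genes described here are 40 genes of fatty acid oxidation in mouse kidney, with the peroxisomal and ketone enzymes that border on it. They were chosen by name, as the rows of the deposited gene table that carry one of 40 symbols, out of 30587 genes in that table. All 40 had enough counts to be tested, as did 18048 genes in all. By textbook location, 23 of the proteins work in mitochondria, 8 in peroxisomes and 9 in both or elsewhere.

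Total kidney RNA was compared at 28 days of age between 4 Tsc1-KO libraries (Tsc1-KO 5 to 8, floxed Tsc1 with Aqp2-Cre on C57BL/6) and 4 WT libraries (WT 1 to 4, C57BL/6). Aqp2-Cre acts in principal cells of the collecting duct, so that the other cells of the kidney keep Tsc1, a brake on mTORC1 signaling. Neither the sex nor the animal behind a library is labelled, and p-values therefore reflect only how far the 8 libraries scattered. Levels are given as CPM (counts per 1000000 counts of the scaled library), and a gene was called where its adjusted p from the edgeR quasi-likelihood test was under 0.05.

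The kidney burns fatty acids mainly in the proximal tubule, which reabsorbs most of the filtered salt, glucose and amino acids. Long-chain fatty acids are joined to coenzyme A, carried across the mitochondrial membranes on carnitine, and shortened in a spiral of oxidation, hydration, a further oxidation and thiolysis. Peroxisomes run a parallel spiral on very long and branched chains and release hydrogen peroxide, and the nuclear receptor PPAR-alpha drives many genes of both spirals.

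Libraries held between 26453073 and 31226739 counts. Tsc1 itself had 65.9, 34.0, 51.4 and 47.6 CPM in Tsc1-KO libraries, against 42.8, 55.3, 54.4 and 53.3 CPM in WT libraries (log2 change -0.05, SE 0.18, adjusted p = 0.933), and its values overlapped. Whole kidney RNA is not enriched for principal cells. Y-linked genes had between 5329 and 6001 reads in Tsc1-KO 7 and 8 and between 3945 and 4578 in WT 3 and 4, and at most 8 in each of the other libraries. Each genotype thus held 2 libraries with such reads and 2 without.

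Transcripts of fatty acid oxidation tended to lower values in Tsc1-KO kidneys, and 3 passed the test. These were Cpt2, which releases the fatty acid from carnitine inside the mitochondrion, Acadm, the medium-chain acyl-CoA dehydrogenase, and Decr1, a reductase for polyunsaturated chains. Their 3 calls are 7.5% of the 40 members, where 1.16% of all tested genes were called lower. No member was called higher, where 3.5% of all tested genes were called higher by edgeR. At an unadjusted p under 0.05 no member was higher either (10.8% of all tested genes were), and DESeq2 and limma gave 0. Of the 40 log2 changes, 37 were negative and 3 positive (Acsl1, Hadha and Hadhb), against 49.3% negative among all tested genes.

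The median log2 change was -0.31 over the members and 0.00485 over all tested genes. At an unadjusted p under 0.05, 17 members were lower, where 6.8% of all tested genes were. In 10 members (25%), every Tsc1-KO library lay below every WT library, where 4.4% of all tested genes did. In 0 members was every Tsc1-KO library above every WT library, where 7.09% of all tested genes were. The calls stand close to the threshold. Leaving out 1 library at a time gave 5 lower members without Tsc1-KO 7, 2 without WT 2 and 0 without each of the other 6, where 2.03%, 0.766% and 0.577% to 0.854% of all tested genes were called lower. DESeq2 gave 10 lower members (25%), where 2.46% of all genes with an adjusted p were called lower.

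**Figure D1:**
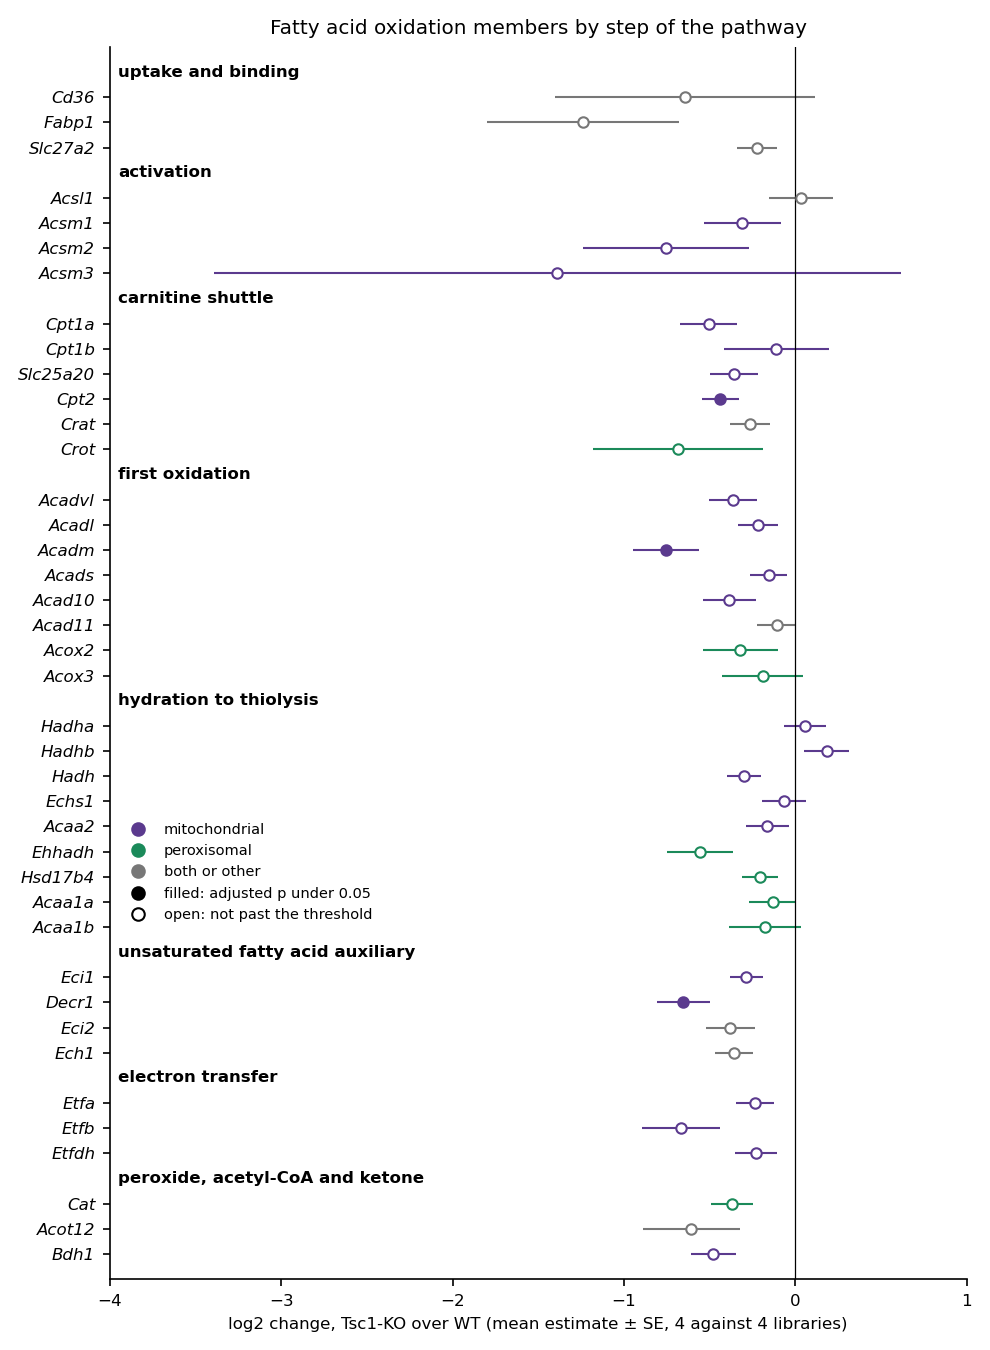
Log2 change of Tsc1-KO over WT for each of the 40 members, as the edgeR estimate with its SE (bars), grouped by step of the pathway and coloured by where the protein works. The 3 filled points (Cpt2, Acadm and Decr1) passed an adjusted p under 0.05, and 37 of the 40 points lie left of 0.

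Uptake and activation are the entry to the pathway and gave no call by edgeR, DESeq2 or limma, with 1 of 7 members (Fabp1) at an unadjusted p under 0.05. Cd36, the fatty acid translocase of the plasma membrane, had 69.8, 81.3, 283 and 62.3 CPM in Tsc1-KO libraries, against 68.8, 81.9, 383 and 243 CPM in WT libraries (log2 change -0.65, SE 0.76, adjusted p = 0.747). Its values overlapped, and 3 libraries with Y-linked reads stood far above the rest. Slc27a2, a very long-chain acyl-CoA synthetase, had the highest level of the members per length, at 569 ± 35.4 FPKM in Tsc1-KO and 674 ± 79.1 FPKM in WT kidneys (SD, n = 4 each). Fabp1, the liver fatty acid binding protein, was near the floor at 0.251 to 1.02 CPM in Tsc1-KO and 0.596 to 2.75 CPM in WT libraries.

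Acsl1, which activates long chains, had an estimate of 0.03 on the log2 scale (SE 0.19, adjusted p = 0.962). The medium-chain synthetases Acsm1, Acsm2 and Acsm3 had log2 changes of -0.31, -0.76 and -1.39, with SEs of 0.22, 0.48 and 2.01. None of these passed the test, and the wide error of Acsm2 and Acsm3 came with a split between libraries that is described further on.

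The carnitine shuttle held a call. Cpt2 (ENSMUSG00000028607, chromosome 4, 107903981 to 107923610, minus strand, positions as in GRCm38) had 149.8, 157, 170.1 and 159 CPM in Tsc1-KO libraries, against 206, 187, 245 and 223 CPM in WT libraries. The groups did not overlap, and the spread was narrow in Tsc1-KO (159 ± 8.41 CPM) and wider in WT (215 ± 24.7 CPM, SD, n = 4 each). The log2 change was -0.44 (SE 0.11, adjusted p = 0.0452), a fold of 0.738.

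Cpt1a, the outer membrane transferase that admits long chains to the mitochondrion, had 346, 316, 482 and 399 CPM in Tsc1-KO libraries, against 433, 497, 625 and 635 CPM in WT libraries (log2 change -0.51, SE 0.17, adjusted p = 0.123). Only Tsc1-KO 7 reached into the WT range. Slc25a20, the carnitine-acylcarnitine carrier, had 57.4 to 82.2 CPM in Tsc1-KO and 77.9 to 109 CPM in WT libraries (log2 change -0.36, SE 0.14, adjusted p = 0.203). Crat, the acetyl transferase, had a log2 change of -0.26 (SE 0.12) and the peroxisomal octanoyl transferase Crot of -0.68 (SE 0.50), with no call. Cpt1b, the muscle form, was at 0.831 to 1.94 CPM in Tsc1-KO and 1.40 to 1.75 CPM in WT libraries.

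The acyl-CoA dehydrogenases take the first step of the mitochondrial spiral, each on its own chain length. Acadm (ENSMUSG00000062908, chromosome 3, 153922357 to 153944632, minus strand) had 563, 676, 882 and 490.1 CPM in Tsc1-KO libraries, against 1146, 906, 1371 and 981 CPM in WT libraries. The highest Tsc1-KO library stood just under the lowest WT library. The log2 change was -0.75 (SE 0.19, adjusted p = 0.0486), a fold of 0.593. Its level was 165 ± 43.1 FPKM in Tsc1-KO and 282 ± 52.7 FPKM in WT kidneys (SD, n = 4 each).

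PPAR-alpha binds, with its partner RXR, to a repeat of the hexamer AGGTCA spaced by a single base. That repeat, AGGTCANAGGTCA on either strand, was in none of the 39 promoter windows found for 35 of the members. It was in 0.0396% of 32851 RefSeq promoter windows of 300 bases (250 before to 50 after each start, GRCm38.p6). At so low a share a match among 39 windows was unlikely for any genes, so its absence says nothing about the members. The hexamer alone was in 10 of the 39, against 16.3% of all windows, and Acadm was the only called member among the 10, while Decr1, Cpt1b, Crat, Acaa2 and Hsd17b4 were not searched. The other 9 were Cd36, Fabp1, Slc27a2, Acsm1, Cpt1a, Acadvl, Echs1, Cat and Acot12. The Acadm window is shown because it is the promoter of a called member that holds the hexamer, in capitals here as its reverse complement at position -249 from the start (chr3:153944594-153944893, minus strand). A match is a description of letters and not a bound site.
Acadm: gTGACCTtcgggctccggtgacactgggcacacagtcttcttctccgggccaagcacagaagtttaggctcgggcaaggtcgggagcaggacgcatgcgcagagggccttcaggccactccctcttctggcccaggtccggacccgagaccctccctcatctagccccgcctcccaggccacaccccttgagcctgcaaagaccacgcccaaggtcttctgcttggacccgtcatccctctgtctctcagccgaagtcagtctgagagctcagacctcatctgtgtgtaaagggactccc

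The dehydrogenases for other chain lengths had smaller differences. Acadvl, for very long chains, had 125 to 157 CPM in Tsc1-KO and 147 to 223 CPM in WT libraries (log2 change -0.36, SE 0.14, adjusted p = 0.202). Acadl, for long chains, had a log2 change of -0.22 (SE 0.12) and Acads, for short chains, of -0.16 (SE 0.11). Acad10, a dehydrogenase of the same family, had 58.1 to 95.9 CPM in Tsc1-KO and 96.9 to 115 CPM in WT libraries, without overlap (adjusted p = 0.212). Acad11, of the same family, had a log2 change of -0.11 (SE 0.12). All 5 mitochondrial dehydrogenases of the list had negative log2 changes, and 1 of them passed the test.

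The peroxisomal counterparts of this step are acyl-CoA oxidases, which pass electrons to oxygen. Acox2, for bile acid intermediates and branched chains, had 165, 96.7, 175 and 123 CPM in Tsc1-KO libraries, against 217, 209, 129 and 144 CPM in WT libraries (log2 change -0.32, SE 0.22, adjusted p = 0.512). Acox3 had 157, 152, 211 and 153 CPM in Tsc1-KO libraries, against 136, 128, 252 and 253 CPM in WT libraries (log2 change -0.19, SE 0.24, adjusted p = 0.758). Both overlapped widely, and within WT each gene separated the libraries with and without Y-linked reads, in opposite directions.

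From hydration to thiolysis no member passed the test by edgeR, while 2 did by DESeq2 (Hadh and Ehhadh) and none by limma. Hadh, the short-chain hydroxyacyl-CoA dehydrogenase, had 405, 383, 438 and 409 CPM in Tsc1-KO libraries, against 497, 475, 546 and 497 CPM in WT libraries (log2 change -0.30, SE 0.10, adjusted p = 0.127). Its groups did not overlap. Ehhadh, the peroxisomal bifunctional enzyme, had 496, 316, 518 and 401 CPM in Tsc1-KO libraries, against 509.8, 536, 833 and 667 CPM in WT libraries (log2 change -0.56, SE 0.19, adjusted p = 0.145), with only Tsc1-KO 7 above the lowest WT library. Hsd17b4, the other peroxisomal bifunctional enzyme, had a log2 change of -0.20 (SE 0.10), and the thiolases Acaa1a, Acaa1b and Acaa2 had -0.13, -0.18 and -0.16. Echs1, the short-chain hydratase, had a log2 change of -0.07 (SE 0.13).

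Hadha and Hadhb encode the alpha and beta subunits of the trifunctional protein, which carries out the later steps for long chains on the inner mitochondrial membrane. Hadha had 370.5, 419.8, 341 and 355 CPM in Tsc1-KO libraries, against 406, 385, 318 and 320.2 CPM in WT libraries (log2 change 0.06, SE 0.12, adjusted p = 0.874). Hadhb had 251, 299.9, 212 and 231 CPM in Tsc1-KO libraries, against 243, 235, 200.1 and 197 CPM in WT libraries (log2 change 0.18, SE 0.13, adjusted p = 0.537). The values overlapped in each gene, and the order of the libraries was the same in Tsc1-KO for the highest (Tsc1-KO 6) and the lowest (Tsc1-KO 7). These are the only mitochondrial members with positive estimates, and that of Hadha turned negative without Tsc1-KO 6, WT 3 or WT 4.

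The genes stand head to head, with RefSeq starts 273 bases apart, so that their promoter windows overlap by 228 bases. The shared stretch is shown because it joins the mitochondrial members that did not have lower estimates, a choice made after their values were seen. It is printed on the Hadhb strand (chr5:30155003-30155302, plus strand) with the bases that also lie in the Hadha window in capitals. It holds no AGGTCA on either strand. Of the 50-base words of the Hadhb transcript, 61.5% also occur in the processed pseudogene Gm13910, which had 63.3 ± 2.09 CPM in Tsc1-KO and 59.0 ± 4.52 CPM in WT kidneys, so the level of Hadhb is uncertain.
Hadhb: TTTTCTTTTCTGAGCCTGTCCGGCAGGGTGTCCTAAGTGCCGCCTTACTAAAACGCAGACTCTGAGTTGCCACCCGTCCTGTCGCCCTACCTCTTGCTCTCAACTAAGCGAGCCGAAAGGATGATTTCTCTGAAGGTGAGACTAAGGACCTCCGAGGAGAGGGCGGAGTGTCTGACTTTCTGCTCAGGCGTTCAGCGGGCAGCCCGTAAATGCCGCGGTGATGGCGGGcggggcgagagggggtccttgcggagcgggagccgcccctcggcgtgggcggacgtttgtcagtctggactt

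**Figure D2:**
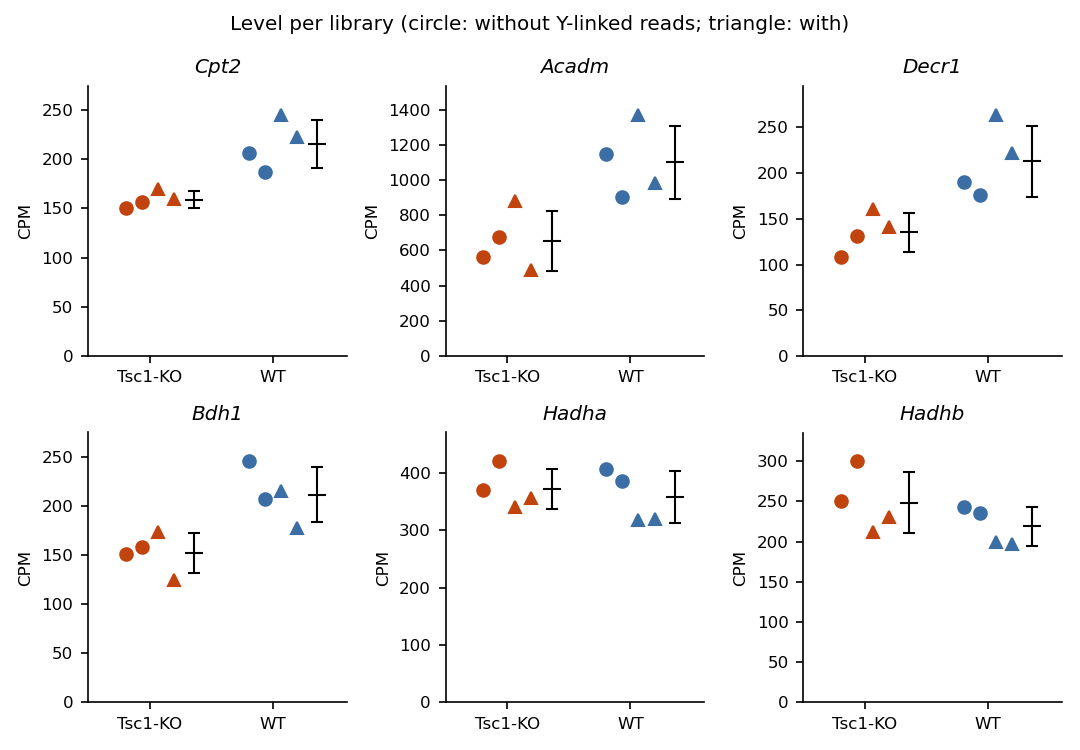
CPM of 6 members in each library, Tsc1-KO left and WT right, with the mean and SD of 4 libraries beside each group; circles are libraries without and triangles libraries with Y-linked reads. In Cpt2, Acadm, Decr1 and Bdh1 all 4 Tsc1-KO libraries lie below all 4 WT libraries, while in Hadha and Hadhb the groups overlap.

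Unsaturated chains need helper enzymes, and the helpers were the group with the most separated values. Decr1 (ENSMUSG00000028223, chromosome 4, 15917240 to 15945507, minus strand) had 109, 131, 161 and 141 CPM in Tsc1-KO libraries, against 189.9, 176, 264 and 222 CPM in WT libraries. The groups did not overlap, and the log2 change was -0.65 (SE 0.15, adjusted p = 0.0364), a fold of 0.636. Ech1, the dienoyl-CoA isomerase, had 277 to 333 CPM in Tsc1-KO and 373 to 450.2 CPM in WT libraries (log2 change -0.36, SE 0.11, adjusted p = 0.102). Eci1 and Eci2, the enoyl-CoA isomerases, had log2 changes of -0.28 (SE 0.10) and -0.38 (SE 0.14). All 4 helpers had an unadjusted p under 0.05, 1 was called, and 3 of them did not overlap between genotypes. Among all tested genes 6.8%, 1.16% and 4.4% were lower by these measures.

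The electron transfer flavoprotein hands electrons from the dehydrogenases to the respiratory chain. Its beta subunit Etfb had 37.9, 52.4, 41.3 and 31.2 CPM in Tsc1-KO libraries, against 70.9, 44.0, 91.0 and 52.4 CPM in WT libraries (log2 change -0.67, SE 0.23, adjusted p = 0.146). The alpha subunit Etfa had 237 to 263 CPM in Tsc1-KO and 269 to 352 CPM in WT libraries, without overlap (log2 change -0.24, SE 0.11, adjusted p = 0.305). Etfdh, the oxidoreductase that accepts the electrons, had a log2 change of -0.23 (SE 0.13). No member of this step was called by edgeR or limma, and Etfb was by DESeq2.

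Catalase, which removes the peroxide that acyl-CoA oxidases make, had 887, 626, 779 and 801 CPM in Tsc1-KO libraries, against 1049.9, 996, 930.0 and 1018 CPM in WT libraries (Cat, log2 change -0.37, SE 0.12, adjusted p = 0.128). Bdh1, which interconverts the ketone bodies acetoacetate and 3-hydroxybutyrate, had 152, 159, 174 and 125 CPM in Tsc1-KO libraries, against 246, 208, 216 and 178 CPM in WT libraries (log2 change -0.48, SE 0.13, adjusted p = 0.0692). Neither gene overlapped between genotypes, and Tsc1-KO 7 and WT 4 of Bdh1 lay close together. Acot12, the cytosolic acetyl-CoA hydrolase, had 54.5 to 99.0 CPM in Tsc1-KO and 79.1 to 186 CPM in WT libraries (log2 change -0.61, SE 0.28, adjusted p = 0.316).

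The mitochondrial and peroxisomal steps were then set side by side. Of 23 mitochondrial members 21 had negative log2 changes, with a median of -0.31. There were 3 calls, all lower (13%), where 1.16% of all tested genes were called lower. Of 8 peroxisomal members all had negative log2 changes, with a median of -0.26 and no edgeR call. At an unadjusted p under 0.05, 2 were lower, where 6.8% of all tested genes were. DESeq2 called 2 lower (Ehhadh and Cat), where it called 2.46% of all genes with an adjusted p lower, and limma called none. The 9 others had a median of -0.36. Every Tsc1-KO library lay below every WT library in 8 mitochondrial members (34.8%) and in 1 peroxisomal member (12.5%). Among all tested genes 4.4% did. That more calls were mitochondrial does not show that the compartments differed.

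Within each library, the mean log2 level of the mitochondrial members relative to the WT mean was -0.42, -0.47, -0.10 and -0.43 in Tsc1-KO libraries, against -0.13, -0.26, 0.32 and 0.08 in WT libraries. That of the peroxisomal members was -0.19, -0.52, -0.16 and -0.34 in Tsc1-KO libraries, against -0.01, -0.18, 0.14 and 0.05 in WT libraries. The mitochondrial mean minus the peroxisomal mean was -0.22, 0.05, 0.06 and -0.09 in Tsc1-KO libraries, against -0.12, -0.08, 0.18 and 0.03 in WT libraries. These values overlapped, so a shift of the balance between the compartments was not detectable at 4 libraries a group. Over the 15 mitochondrial enzymes of the spiral, its helpers and electron transfer, the mean stood between -0.31 and -0.26 in Tsc1-KO libraries, against -0.13 to 0.15 in WT libraries. Over the 6 peroxisomal oxidation enzymes it stood between -0.424 and -0.0986 in Tsc1-KO libraries, against -0.0944 to 0.0895 in WT libraries. Neither subset overlapped between genotypes, the peroxisomal one by a narrow gap, whereas both full lists did overlap. The subsets leave out the activation and carnitine shuttle members, among them Acsm2, Acsm3 and Crot, which split between libraries. They were cut with earlier results of these data known. How often the mean of other gene subsets separates the genotypes was not examined.

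Markers of the proximal tubule had lower values alongside the members. All 15 of them had negative log2 changes (median -0.59), where 49.3% of all tested genes did. Of these markers 5 were called lower (33.3%; Slc34a1, Miox, Hnf4a, Fbp1 and Ggt1), where 1.16% of all tested genes were. The summed level of the 15 markers was 11755 to 16588 CPM in Tsc1-KO and 20132 to 21730 CPM in WT libraries. That of the 40 members was 10502 to 13912 CPM in Tsc1-KO and 12949 to 18218 CPM in WT libraries. In bulk RNA, fewer cells of a type and less RNA per cell cannot be told apart. The mean log2 level of the members minus that of the markers was 0.09, 0.35, 0.22 and 0.24 in Tsc1-KO libraries, against -0.09, -0.20, 0.24 and 0.04 in WT libraries. Set against those markers, the members' values overlapped between genotypes, with the higher mean in Tsc1-KO (0.22 ± 0.11, SD, n = 4, against 0.00 ± 0.19, SD, n = 4). The mitochondrial members alone also overlapped, at 0.03 to 0.37 in Tsc1-KO and -0.23 to 0.30 in WT libraries. The peroxisomal members did not, at 0.25, 0.32, 0.19 and 0.28 in Tsc1-KO libraries, against -0.01, -0.14, 0.12 and 0.03 in WT libraries, so that they stood higher relative to the markers in each Tsc1-KO library. Markers of other cells went both ways. Of 4 distal convoluted tubule markers 3 had negative log2 changes (median -0.32) and Pvalb was called lower. Of 5 thick ascending limb markers 4 were negative (median -0.09) with no call. The 4 tested principal cell markers had a median of -0.09, with 1 called lower and 1 higher. Intercalated cell and most myeloid markers had higher values. Of 6 intercalated cell markers all had positive log2 changes (median 1.53), 4 were called higher (Foxi1, Atp6v0d2, Atp6v1g3 and Slc4a1) and the summed level was 624 to 1125 CPM in Tsc1-KO and 372 to 527 CPM in WT libraries. Of 5 myeloid markers 4 had positive log2 changes (median 0.94) and 2 were called higher (Lyz2 and Itgam). Their summed level was 100.1 to 132 CPM in Tsc1-KO and 90.4 to 104 CPM in WT libraries. Among all tested genes 3.5% were called higher. The part of cell content in the members' values was not tested.

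**Figure D3:**
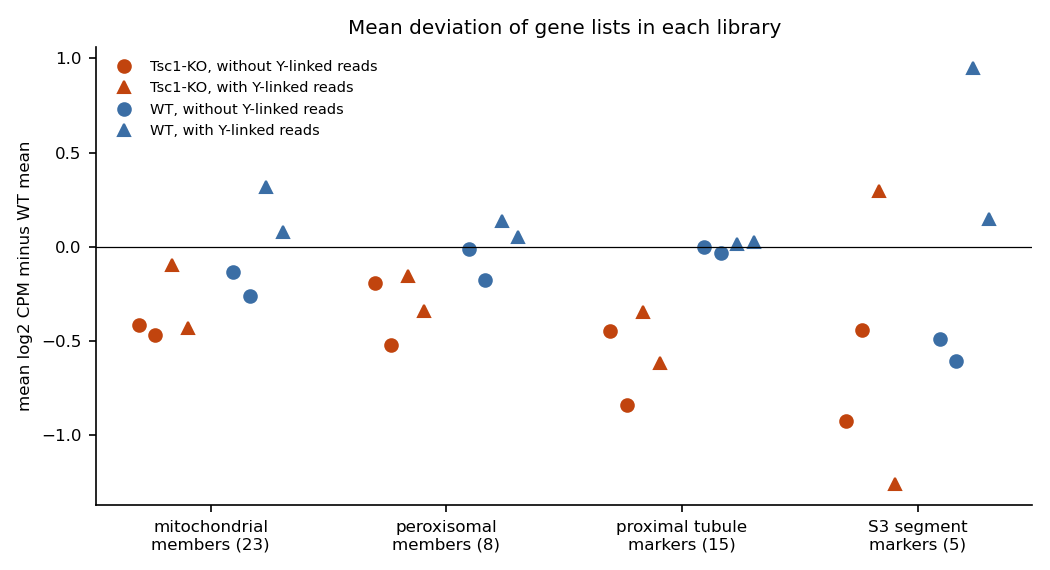
Mean log2 CPM of 4 gene lists in each library minus the WT mean, Tsc1-KO left and WT right within each list; circles are libraries without and triangles libraries with Y-linked reads. The proximal tubule markers separate the genotypes, the mitochondrial and peroxisomal members lie lower in most Tsc1-KO libraries, and the S3 markers spread widely within each genotype.

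A group of members split between libraries within a genotype. Acsm2 had 1119.9, 806, 2539.8 and 1302 CPM in Tsc1-KO libraries, against 1290.0, 1318, 3713 and 3415 CPM in WT libraries. Acsm3 had 5.64, 3.92, 209 and 8.33 CPM in Tsc1-KO libraries, against 3.48, 3.45, 436 and 151 CPM in WT libraries. Crot had 168, 149.9, 356 and 174 CPM in Tsc1-KO libraries, against 178, 161, 609 and 415 CPM in WT libraries. In these genes and in Cd36, Tsc1-KO 7, WT 3 and WT 4 were high, while Tsc1-KO 8, which also carries Y-linked reads, had values near those of the libraries without them.

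With Y-linked reads as a term beside genotype, Acsm2 was the only member called for that term, higher in libraries with such reads (log2 1.22, SE 0.21, adjusted p = 0.0336), where 0.26% of all tested genes were called higher and 0.139% lower. Within WT (2 libraries against 2), 5 members were higher with Y-linked reads (Cd36, Acsm2, Crot, Acox3 and Acot12) and 2 lower (Acsm1 and Acox2), which is 12.5% and 5% of the members, where 1.51% and 1.02% of all tested genes were. The largest called difference was that of Cd36 (log2 2.05, adjusted p = 0.000377). Acsm3 had a log2 difference of 6.39 that missed the threshold (adjusted p = 0.0822). Within Tsc1-KO no member was called, where 0.0375% of all tested genes were, and 1 (2.5%) had an unadjusted p under 0.05, where 1.65% of all tested genes did.

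Whether the effect of genotype differed between libraries with and without Y-linked reads was tested as an interaction. It was called by edgeR in 0 of 18048 genes, while 356 genes (1.97%) and 3 members (Acox3, Acsm1 and Acox2) had an unadjusted p under 0.05, and no other tool was run. A difference between genotypes in this split is therefore not shown. Markers of the S3 segment, the last part of the proximal tubule, were also read. Over 5 such genes the mean log2 level relative to the WT mean was -0.93, -0.44, 0.30 and -1.26 in Tsc1-KO libraries, against -0.49, -0.61, 0.95 and 0.15 in WT libraries. Their summed level was 476, 559, 1132 and 447 CPM in Tsc1-KO libraries, against 847, 758, 1417 and 1059 CPM in WT libraries. Slc7a13 had 34.5, 77.7, 544 and 188 CPM in Tsc1-KO libraries, against 14.2, 18.4, 553 and 469 CPM in WT libraries, and was the only one of the 5 in which both WT libraries with Y-linked reads stood far above both without. In WT, Slc5a10 (383, 380.2, 349.6 and 315 CPM) and Slc22a19 (277, 268, 209 and 164 CPM) ran the other way, Cyp7b1 was high in WT 3 alone, and Slc22a7 had more in WT 1 (169 CPM) than in WT 4 (107 CPM). Slc5a10 was called lower in Tsc1-KO. Their part in the split was not tested.

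**Figure D4:**
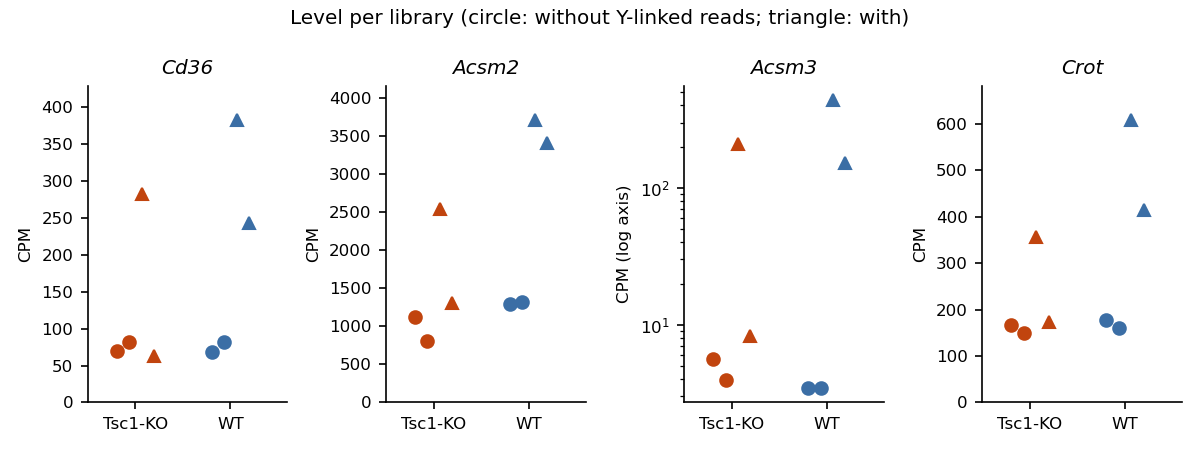
CPM of Cd36, Acsm2, Acsm3 (log axis) and Crot in each library, Tsc1-KO left and WT right; circles are libraries without and triangles libraries with Y-linked reads. Tsc1-KO 7 is the high triangle among the Tsc1-KO libraries, and Tsc1-KO 8 the low one.

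The genotype difference was also taken with the Y-linked term and within each kind of library. With the term, 4 members were lower (Cpt2, Acadm, Decr1 and Cpt1a, adjusted p of 0.0235, 0.0379, 0.0054 and 0.0187), where 1.76% of all tested genes were, and 0 were higher, where 4.32% were. Within the libraries with Y-linked reads 34 of 40 log2 changes were negative (median -0.35), and within those without 37 were (median -0.26). No member was called in either fit of 2 against 2 libraries, where 0.125% and 0.6% of all tested genes were called lower. At an unadjusted p under 0.05, 13 and 8 members were lower, where 3.81% and 4.76% of all tested genes were. The log2 changes of Cpt2, Acadm and Decr1 were -0.51, -0.78 and -0.69 with Y-linked reads and -0.38, -0.75 and -0.63 without.

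Genes that neighbour the members in metabolism gave 5 calls among 90 (4 lower, or 4.44%, and 1 higher). Among all tested genes 1.16% were called lower and 3.5% higher. Leaving out 1 library gave 0 lower without Tsc1-KO 5 or 6, 8 without Tsc1-KO 7 and 1 to 3 without each of the other 5. The shares of all tested genes called lower were 0.637% and 0.602%, 2.03%, and 0.577% to 0.854%. Of 15 other PPAR-alpha targets 1 was called lower: Slc22a5, the carnitine transporter of the plasma membrane, had 208, 206, 277 and 229 CPM in Tsc1-KO libraries, against 361, 311, 358 and 358 CPM in WT libraries (log2 change -0.59, SE 0.12, adjusted p = 0.019). Its groups did not overlap. Pdk4, a kinase that holds back pyruvate oxidation, had 39.1, 38.4, 36.2 and 146 CPM in Tsc1-KO libraries, against 14.5, 35.8, 47.3 and 33.1 CPM in WT libraries. Its difference of 0.99 on the log2 scale (SE 0.59, adjusted p = 0.456) did not pass the test, and Tsc1-KO 8 alone stood above the WT range.

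Among 10 regulators and coactivators of PPAR-alpha none was called by edgeR, DESeq2 or limma. At an unadjusted p under 0.05, 1 was lower and 1 higher, where 6.8% and 10.8% of all tested genes were. Ppara had 49.9, 18.5, 42.2 and 30.1 CPM in Tsc1-KO libraries, against 27.6, 39.0, 48.3 and 46.7 CPM in WT libraries (log2 change -0.20, SE 0.29, adjusted p = 0.805). Ppargc1a, the coactivator that drives mitochondrial genes, differed by 0.18 on the log2 scale (SE 0.16, adjusted p = 0.629). The list had a median of -0.08.

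Of 7 genes of ketone synthesis and use, Bdh2 was called lower, a cytosolic dehydrogenase of the short-chain family. It had 117, 104, 108 and 158 CPM in Tsc1-KO libraries, against 213, 183, 183 and 181 CPM in WT libraries (log2 change -0.64, SE 0.14, adjusted p = 0.0249). Of 20 other peroxisomal enzymes and transporters 15 had negative log2 changes (median -0.33) and Dao, the D-amino acid oxidase, was called lower at 240.3 to 335 CPM in Tsc1-KO and 339 to 493 CPM in WT libraries (log2 change -0.57, SE 0.15, adjusted p = 0.0489). Of 14 enzymes of branched-chain and other mitochondrial acyl-CoA metabolism 13 were negative and Mccc1, a subunit of methylcrotonyl-CoA carboxylase in leucine breakdown, was called lower at 112 to 122 CPM in Tsc1-KO and 153 to 223 CPM in WT libraries (log2 change -0.61, SE 0.13, adjusted p = 0.0213).

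All 16 genes of peroxisome biogenesis had negative log2 changes, between -0.56 and -0.07 with a median of -0.25. None was called by edgeR or limma, 2 were by DESeq2, and 8 had an unadjusted p under 0.05. Of all tested genes, 49.3% had negative log2 changes and 6.8% were lower at that unadjusted p. DESeq2 called 2.46% of all genes with an adjusted p lower. Lipid droplet and lipolysis genes had 10 of 12 positive log2 changes (median 0.18) and 1 call. Plin1 and Cidec of this list are also among the adipocyte markers given below. Plin4, a lipid droplet coat protein, had 17.2, 30.0, 28.8 and 20.3 CPM in Tsc1-KO libraries, against 5.22, 6.63, 7.99 and 10.4 CPM in WT libraries (log2 change 1.67, SE 0.24, adjusted p = 0.00262). Adipocyte markers had a summed 177, 489.8, 463 and 94.2 CPM in Tsc1-KO and 122, 206, 147 and 241 CPM in WT libraries, with 0 of 7 called by edgeR. Plin4 and the marker sum were both highest in Tsc1-KO 6 and 7. The marker sum was lowest in Tsc1-KO 8 and overlapped between genotypes, and Plin4 did not overlap. The part of adipocyte content in the level of Plin4 was not tested.

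**Figure D5:**
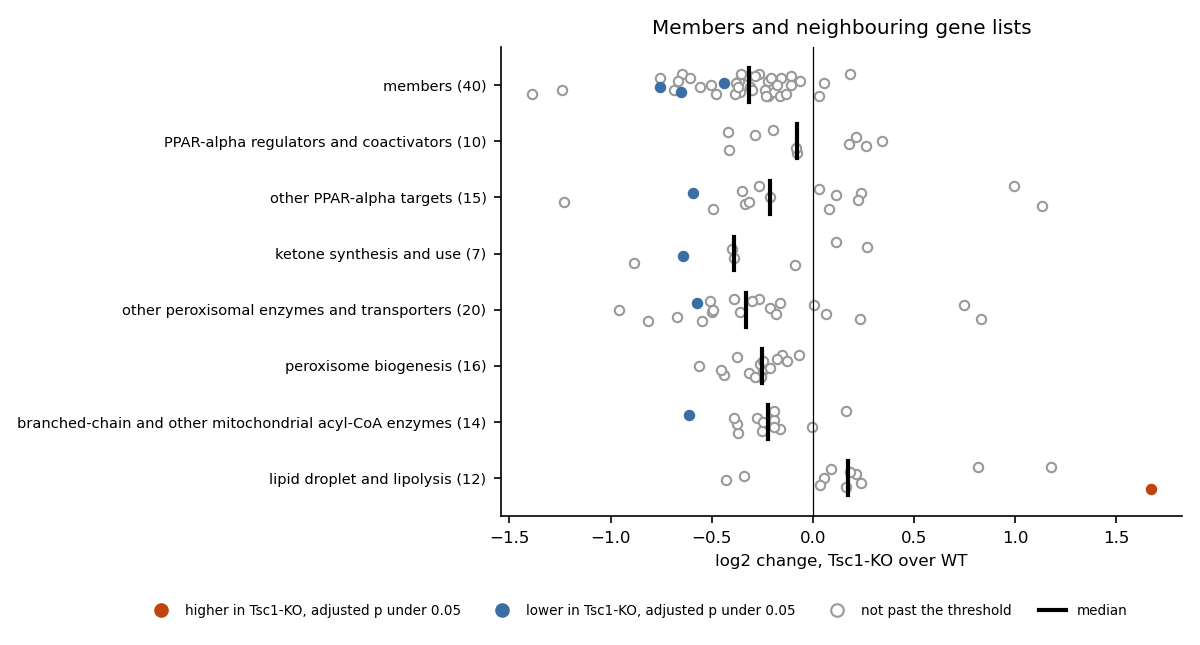
Log2 change of Tsc1-KO over WT for the 40 members and for 7 neighbouring gene lists, each circle a gene and each black bar a list's median. The medians of the members and of every list but the lipid droplet list lie left of 0. That of the lipid droplet list lies right of it, with Plin4 at its far end.

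Some members share sequence with other genes, and strand was not stated for the counting. How reads in such stretches were assigned was not examined. At least 20% of the 50-base words of 8 members occur in another gene: Cpt1b (93%, Gm44502), Etfb (67.3%, Gm45233), Hadhb, Acaa1b and Acaa1a (35.5% and 34% with each other), Acsm3 (35.2%, Eri2), Acadvl (24%, Dvl2) and Acad10 (20.4%, Acad12). Eri2 had 6.14, 3.52, 11.7 and 5.03 CPM in Tsc1-KO libraries, against 5.18, 5.43, 14.8 and 11.8 CPM in WT libraries. Like Acsm3 it was highest in Tsc1-KO 7, WT 3 and WT 4, where Acsm3 had 209, 436 and 151 CPM. In the other libraries Acsm3 had 3.45 to 8.33 CPM, near the level of Eri2, so its level is least certain there. The levels of these 8 members are uncertain to that extent. Cpt2, Acadm and Decr1 are not among them.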

How the data were processed

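Poly(A)-selected RNA of whole mouse kidney was sequenced on a HiSeq 2500 from 4 Tsc1-KO and 4 WT libraries at 28 days. Reads were aligned with HISAT2 2.0.4 and counted with HTSeq 0.9.1, as named in the submitters' processing notes. Genome build, annotation, strand setting and the authors' test tool were not given in the sources used here. The authors deposited raw HTSeq counts per gene, FPKM values scaled for length and depth, and a signal column in which each count was divided by a size factor of its library. The last was not used in a test, nor were the authors' own fold changes and p-values or the sheets that repeat part of the full table.

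Counts were tested with edgeR 4.0.16 in R 4.3.3 (robust quasi-likelihood fit, filterByExpr with a minimum count of 10, Benjamini-Hochberg adjustment over 18048 of 30587 genes). The biological coefficient of variation was 0.241. TMM factors were 1.01 to 1.05 in Tsc1-KO and 0.961 to 0.979 in WT libraries, and so separated the genotypes. With library totals alone, 0 members were called. The 12539 untested genes held 0.116% of counts. Libraries held 26453073 to 31226739 counts, and no pair was a repeat of the other. CPM are scaled by TMM and serve within a gene; FPKM serve between genes. Means of log2 levels used a pseudocount of 0.5 CPM.

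Alternatives were DESeq2 1.42.0, limma 3.58.1 on log2(FPKM + 1), other size factors and filters, each library left out, and Y-linked reads (over 1000 in a library) as a term or within strata. The effect of that term and its interaction were chosen after seeing the data. Members and lists were chosen with earlier results of these data known. Named were all 40 members, up to 4 called genes of each neighbouring list with the smallest adjusted p, and Ppara, Ppargc1a and Pdk4 (other genes fixed by name are not reported here); single markers were named after their values were seen. On data simulated for Tsc1-KO against WT (17741 genes), 6%, 62%, 92% and 98% of genes changed by log2 0.5, 1, 1.5 and 2 were recovered (50 genes each), with 9 false calls. Promoter sequences are RefSeq (GRCm38.p6), matched by symbol for 35 members. The files' coordinates equal GENCODE M21 (GRCm38) for 37 of 40 members; Cpt1a, Acaa2 and Eci1 differ. Shared 50-base words were counted in those transcripts.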

Additional observations from a re-analysis of the deposited data

Results flagged for a closer look

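In 5 members a single library, Tsc1-KO 7, stood far above the other 3 Tsc1-KO libraries, with a gap that took up most of the group's range. Cd36 had 283 CPM there, against 62.3 to 81.3 CPM in the others. Acsm3 had 209 CPM, against 3.92 to 8.33 CPM, and Crot had 356 CPM, against 149.9 to 174 CPM. Crat had 199.9 CPM, against 162 to 163 CPM, and Acox3 had 211 CPM, against 152 to 157 CPM. About 1 in 20 groups of 4 is set apart in this way by chance, and both genotypes were examined in each of the 40 members.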

How the results depend on the processing

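Of the 3 members called lower, the same number was called with DESeq2 size factors in edgeR, 4 with the Y-linked term and without a filter, and 2 with a stricter filter or without robust dispersion. DESeq2 called 10 (2.46% of all genes lower, against 1.16% in edgeR) and added Cpt1a, Hadh, Ehhadh, Ech1, Etfb, Cat and Bdh1, whereas limma on FPKM, library totals alone, and the libraries with or without Y-linked reads called 0 each. Leaving out 1 library gave 0 to 5 (5 without Tsc1-KO 7, 2 without WT 2), with the log2 changes of Cpt2, Acadm and Decr1 negative in all 8 fits. Neighbouring genes called lower numbered 4, with 13 by DESeq2, 0 and 2 in libraries with and without Y-linked reads, and 0 to 8 without 1 library, and Plin4 was not called in libraries with Y-linked reads, which left 0 called higher. The cause was not tested.

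Signs turned in 9 members, Acsm3 with its main log2 change of -1.39 and SE of 2.01 among them. With Y-linked reads only, Acsm1, Acox2 and Echs1 came to 0.0085, 0.13 and 0.078. Without Y-linked reads, Acsl1, Acsm3, Acox3 and Hadha came to -0.27, 0.44, 0.21 and -0.023. Library totals, which shifted the median of all genes to 0.10, put Echs1 at 0.027. Without 1 library, log2 changes ranged from -0.11 to 0.13 for Acsl1, -4.64 to 0.11 for Acsm3, -0.28 to 0.079 for Cpt1b, -0.015 to 0.12 for Hadha, -0.15 to 0.034 for Echs1 and -0.32 to 0.0056 for Acaa1b. No paired analysis was possible because the replicate numbers (WT 1 to 4, Tsc1-KO 5 to 8) are not shared.

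With 4 libraries a group, changes under log2 1 were often not detectable, and most members differed by less.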
